A study of Homo sapiens with 6 samples.

Results

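The genes described here are the MYC family and the MAX network, 10 genes chosen by name from a table of 26789 genes: MYC, MYCN, MAX, MXD1, MXD3, MXD4, MXI1, MNT, MGA and MLX. Each symbol had a single row in the table. The RNA came from wild-type SK-N-SH, an established human neuroblastoma line, kept 6 h in medium alone (control, 3 libraries) or in medium with dopamine (3 libraries), after 24 h in standard medium for all. The printed dose, 40 M, appears to lack a prefix and is not interpreted. SH-SY5Y, a subline of SK-N-SH, is named in the design text, but every sample label reads SK-N-SH. Whether the replicates were separate cultures is not labelled, and p-values therefore refer to the spread among these libraries, which may be technical.

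All proteins of this network carry a basic helix-loop-helix leucine zipper. MYC and MYCN bind DNA as heterodimers with MAX at E-box sequences and recruit coactivators that promote growth and ribosome synthesis. MXD1, MXD3, MXD4, MXI1 and MNT also need MAX, compete with MYC for it and recruit SIN3 corepressors, while MGA pairs with MAX in a Polycomb-related repressor complex. MLX resembles MAX and pairs with the Mondo proteins, which sense sugar phosphates, and with some MXD proteins. In neuroblastoma the network is known for MYCN amplification in aggressive tumours, and SK-N-SH is a line without that amplification.

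The design text states an interest in dopamine and proliferation, and the network was compared between dopamine and control cells with that question in view. None of the 8 tested members passed the adjusted threshold of 0.05. MXI1, which encodes a MYC antagonist, stood highest relative to control, at 3.64 ± 0.521 FPKM against 2.52 ± 0.240 FPKM (SD, n = 3 per group). Its fold, taken on log2(FPKM + 0.5), was 1.37. MYC was at 15.1 ± 1.14 FPKM with dopamine and 16.5 ± 1.72 FPKM in control cells, and its partner MAX at 19.0 ± 0.135 and 18.9 ± 0.848 FPKM. MYCN was close to undetected in both groups. In bulk RNA a change in the number of cells of a type and a change in RNA per cell cannot be told apart.

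In FPKM, a gene's fragments are divided by its model length and by the size of the library. Values were compared as log2(FPKM + 0.5), for genes with a mean of at least 1 FPKM, by limma with Benjamini-Hochberg adjustment over all 11791 tested genes (two-sided). MXD1 and MYCN lay below that mean. Among all tested genes 12 passed, or 0.102% (0.0848% higher and 0.017% lower), against 0 of the 8 members. At an unadjusted p under 0.05 (limma) stood 1 of the 8 members, MXI1, against 32.5% of all tested genes (24.4% higher, 8.05% lower). Dopamine and control values did not overlap in the same 1 of 8, against 38.4% of all tested genes (24.4% higher, 14.1% lower). The 8 members had a median log2 fold change of -0.02, and all tested genes one of 0.08.

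The recovered depth was 19393000 to 24232000 fragments per library. The libraries differed in how their values depended on GC content. Per 10 points of GC content, log2 values changed by 0.02, 0.11 and 0.22 across genes in the control libraries (replicates 1 to 3) and by -0.03, -0.06 and -0.26 in the dopamine libraries, and the groups did not overlap. Control replicate 3 and dopamine replicate 3 stood at the ends of the first principal component, which held 66.4% of the variance. Of the adrenergic neuroblastoma markers chosen for the check, 8 of 9 were at a mean of 1 FPKM or more, as were 8 of 8 mesenchymal ones. The 3 immune markers in the table summed to at most 0.0604 FPKM in any library, the 3 endothelial ones to at most 1.019 FPKM and the 5 epithelial ones to 4.24 to 4.63 FPKM in control and 3.49 to 3.74 FPKM in dopamine libraries. The 4 nuclear-retained RNAs in the table summed to 2.33 to 3.04 FPKM in control and 2.91 to 5.47 FPKM in dopamine libraries. The part of these markers and RNAs in the results below was not tested.

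**Figure D1:**
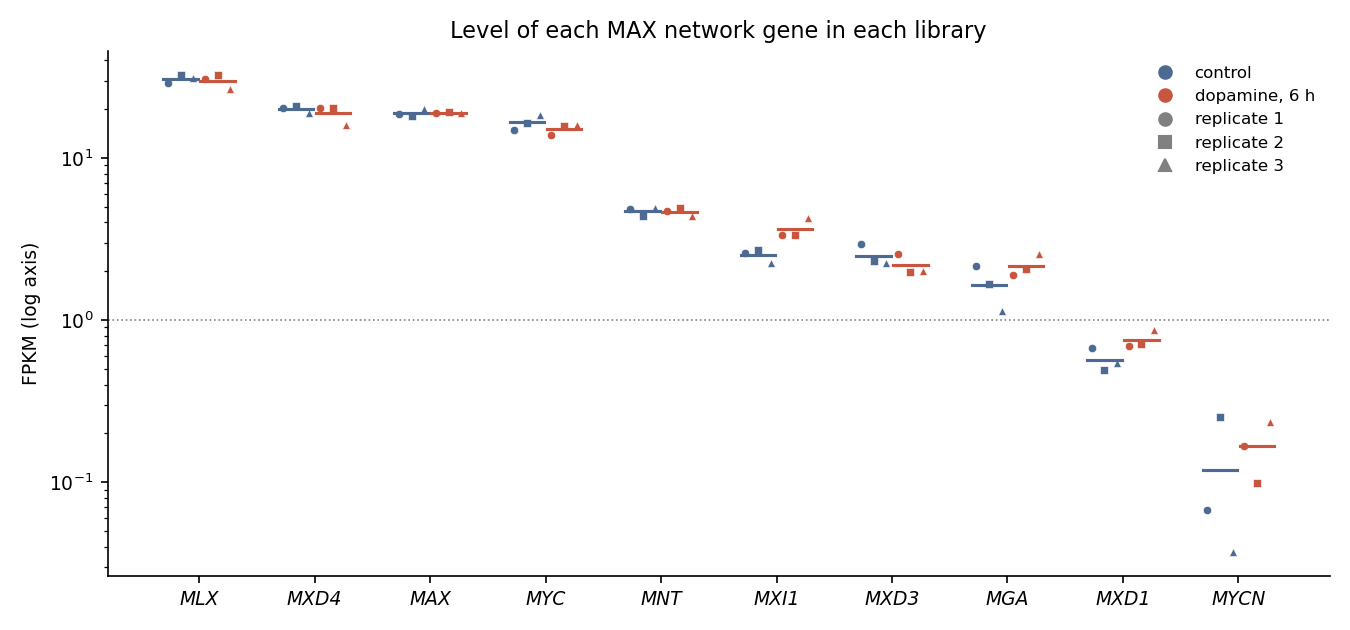
FPKM (log axis) of the 10 genes in each library, ordered by control mean, with 1 symbol per replicate, blue for control, red for dopamine and a line at each group mean; the dotted line marks 1 FPKM. MXI1 and MXD1 are the genes whose dopamine points all lie above the control points, while MLX, MXD4, MAX and MYC stay between 13.8 and 32.6 FPKM in every library.

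FPKM is scaled to length, and levels are set side by side on that basis. MAX, MXD1, MXD3 and MLX overlap other protein-coding genes, and how shared fragments were counted is not stated, so their levels are uncertain. The order is not corrected for GC content. In control cells MLX was the most abundant member at 30.8 ± 1.85 FPKM, followed by MXD4 at 20.02 ± 0.930, MAX at 18.9 ± 0.848 and MYC at 16.5 ± 1.72 FPKM. The control ranges of MXD4 and MAX overlapped, as did those of MAX and MYC. A step of 3.53-fold separated MYC from MNT at 4.69 ± 0.283 FPKM. MXI1 at 2.52 ± 0.240 and MXD3 at 2.496 ± 0.383 FPKM overlapped, and below them came MGA at 1.65 ± 0.501, MXD1 at 0.569 ± 0.0956 and MYCN at 0.120 ± 0.117 FPKM. With dopamine the order was the same except that MAX and MXD4 changed places.

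MYC (ENSG00000136997.10, hg19 chromosome 8, 128747680 to 128753674) encodes the growth-promoting activator for which the network is named. It was measured at 14.9, 16.4 and 18.3 FPKM without dopamine, and at 13.8, 15.7 and 15.9 FPKM with it. The highest value was control replicate 3 and the lowest dopamine replicate 1, and the groups overlapped. The log2 fold change was -0.12 (SE 0.10, 95% interval -0.35 to 0.10, limma adjusted p = 0.394). This interval leaves room for a fall of 0.35 or a gain of 0.10 on the log2 scale. MYC stood for 858 to 1192 fragments per library, so counting error was at most 3.41%, against a spread between control replicates of 10.4%. The size of the difference rested on single libraries, at -0.05 when control replicate 3 was left out, -0.06 without dopamine replicate 1 and -0.19 without control replicate 1, and it was -0.21 after median-of-ratios scaling.

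MYCN (ENSG00000134323.10, chromosome 2, 16080686 to 16087129) encodes the paralog of MYC that drives a large class of neuroblastomas. It stood at 0.0677, 0.254 and 0.0372 FPKM in control and at 0.167, 0.0991 and 0.234 FPKM in dopamine libraries. With a model length of 2602 bases these were 4, 16 and 2 fragments in control and 9, 5 and 13 in dopamine libraries, whole within 0.00251 fragments. The groups overlapped and no difference was detectable at this depth (exact permutation test, two-sided, p = 0.6, where the smallest p that 3 against 3 allows is 0.1). MYC made up 98.5 to 99.8% of the summed MYC and MYCN FPKM in each library. The third family gene, MYCL, was also low, at means of 0.103 and 0.115 FPKM.

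MAX (ENSG00000125952.14, chromosome 14, 65472892 to 65569413) encodes the shared partner. Control libraries held it at 18.7, 18.2 and 19.9 FPKM, dopamine libraries at 18.9, 19.1 and 19.0 FPKM. The dopamine values lay within the control range. The log2 fold change was 0.01 (SE 0.07, 95% interval -0.16 to 0.17, limma adjusted p = 0.967), with -0.08 under median-of-ratios scaling, -0.0020 under quantile normalization and -0.03 once values were corrected for the GC content and length of transcripts. The ratio of MYC to MAX FPKM was 0.794, 0.901 and 0.922 in control and 0.733, 0.819 and 0.837 in dopamine libraries, ranges that overlapped. MAX overlaps the farnesyltransferase gene FNTB over 56477 bases and an antisense gene over 12179 bases. Since the sources used here do not state a strand setting for the counting, values of overlapping genes are uncertain. FNTB was lower than MAX, at means of 2.97 and 2.78 FPKM.

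MLX (ENSG00000108788.7, chromosome 17, 40719086 to 40725257) stood at 28.9, 32.5 and 31.1 FPKM in control and at 30.7, 32.6 and 26.7 FPKM in dopamine libraries. Dopamine replicate 3 was the lowest and the groups overlapped (log2 fold change -0.04, SE 0.09, limma adjusted p = 0.767). The sign turned without dopamine replicate 3 (0.04). MLXIP, which encodes the MLX partner MondoA, stood at 10.8 ± 0.779 and 9.94 ± 0.220 FPKM (adjusted p = 0.374), while MLXIPL, the gene of the liver-type partner ChREBP, was at means of 0.00287 and 0.0138 FPKM. Of 3 listed targets of these factors, TXNIP, which encodes a brake on glucose uptake, stood at 31.0 ± 3.92 and 36.9 ± 0.951 FPKM (adjusted p = 0.124). ARRDC4, a related arrestin-domain gene, stood at 0.975 ± 0.156 and 1.43 ± 0.307 FPKM (adjusted p = 0.146), and the hexokinase gene HK2 at 6.16 ± 0.292 and 6.03 ± 0.394 FPKM (adjusted p = 0.848). None of the 3 passed. By the unadjusted p (limma) 2 were higher and 0 lower, against 24.4% and 8.05% of all tested genes, and the median log2 fold change was 0.25. TXNIP had no GC value and was not corrected. For the other 2 the median after correcting for GC and length was -0.0008, with 0 called by the unadjusted p.

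Among the MYC antagonists, MXI1 (ENSG00000119950.16, chromosome 10, 111967363 to 112047123) had control values of 2.60, 2.71 and 2.25 FPKM and dopamine values of 3.36, 3.32 and 4.24 FPKM. All 3 dopamine libraries lay above all 3 control libraries, with dopamine replicate 3 highest and control replicate 3 lowest. The log2 fold change was 0.45 (SE 0.13, 95% interval 0.16 to 0.75), with an unadjusted p of 0.00673 and an adjusted p of 0.11 in limma. MXI1 stood for 272, 302 and 214 fragments in control and 321, 297 and 418 in dopamine libraries (model length 4607 bases), a counting error of 4.89 to 6.84%. The direction was the same in 19 of 19 alternative settings. With sample quality weights it passed the adjusted threshold (log2 fold change 0.31, adjusted p = 0.038), where 22.9% of all tested genes did, and over the 19 settings the adjusted p ran from 0.038 to 0.371. The size depended on the processing, at 0.27 after quantile normalization, 0.29 without both replicates numbered 3 and 0.16 (SE 0.08, adjusted p = 0.352) after correcting for GC and length, when the groups overlapped.

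MXD4 (ENSG00000123933.10, chromosome 4, 2249159 to 2264021), the most abundant antagonist gene, stood at 20.3, 20.8 and 19.0 FPKM in control and at 20.3, 20.3 and 15.99 FPKM in dopamine libraries. Dopamine replicate 3 was again the lowest, and the other 2 dopamine libraries lay within the control range. The log2 fold change was -0.09 (SE 0.10, limma adjusted p = 0.546), and 0.02 without dopamine replicate 3. MNT (ENSG00000070444.10, chromosome 17, 2287354 to 2304412), which encodes the most widely expressed antagonist, stood at 4.81, 4.36 and 4.89 FPKM in control and at 4.69, 4.90 and 4.41 FPKM in dopamine libraries. Its groups overlapped (log2 fold change -0.01, SE 0.10, adjusted p = 0.975). After correcting for GC and length its dopamine values all lay above its control values (log2 fold change 0.15, SE 0.07, limma adjusted p = 0.317). The share of all genes whose groups did not overlap after the correction was not computed. It also moved the median of the tested genes with 60 to 65% GC, where MNT lies, from -0.16 to -0.01.

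MXD3 (ENSG00000213347.6, chromosome 5, 176728462 to 176739758), whose gene is expressed in dividing cells, stood at 2.94, 2.30 and 2.25 FPKM in control and at 2.56, 1.991 and 1.997 FPKM in dopamine libraries. Replicate 1 was the highest in both groups, and the groups overlapped (log2 fold change -0.16, SE 0.14, limma adjusted p = 0.442). The size was -0.34 (adjusted p = 0.148) under quantile normalization and -0.01 after correcting for GC and length. The mitochondrial protein gene PRELID1, at means of 190 and 167 FPKM, lies within the span of MXD3 over 3186 bases. RAB24, also protein-coding, overlaps MXD3 over 2284 bases and stood at means of 0.606 and 0.657 FPKM. How shared fragments were counted is not stated, so the level of MXD3 is uncertain in either direction. MXD1 (ENSG00000059728.6, chromosome 2, 70124820 to 70170077), which encodes the founding MAX dimerization antagonist, lay under the filter, at 0.675, 0.490 and 0.543 FPKM in control and 0.687, 0.710 and 0.873 FPKM in dopamine libraries. These were 71 to 118 fragments. All 3 dopamine values lay above the control values, with a gap from 0.675 to 0.687 FPKM, and the exact permutation test gave the smallest p it allows (two-sided, p = 0.1). When genes down to a mean of 0.3 FPKM were tested, its log2 fold change was 0.23 (SE 0.14, limma adjusted p = 0.288). The splicing factor gene SNRNP27, which overlaps MXD1 over 7888 bases, stood at means of 8.10 and 10.2 FPKM.

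The summed FPKM of the 5 antagonist genes was 31.3, 30.6 and 28.9 in control and 31.6, 31.2 and 27.5 in dopamine libraries. MXD4 made up 64.8 to 67.8% of that sum in control and 58.1 to 65.0% in dopamine libraries. MXI1 made up 8.30, 8.83 and 7.77% in control and 10.6, 10.6 and 15.4% in dopamine libraries, ranges that did not overlap. The ratio of MYC to the summed antagonists was 0.548 ± 0.0799 in control and 0.506 ± 0.0706 in dopamine cells (SD, n = 3 per group), which differed by less than the spread between replicates. These sums are descriptions with no test, and they were not corrected for GC content. MXI1 has 43.7% GC in its longest transcript and MXD4 57.6%. The groups of MXI1 itself overlapped after correcting for GC and length. How often a gene's share of such a sum differs without overlap was not computed.

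MGA (ENSG00000174197.12, chromosome 15, 41913422 to 42062141), which encodes a very large protein with a T-box as well as the MAX-binding domain, stood at 2.14, 1.66 and 1.14 FPKM in control and at 1.89, 2.06 and 2.55 FPKM in dopamine libraries. The control libraries spread by 30.4% of their mean, against a counting error of at most 5.41%, and the groups overlapped. The log2 fold change was 0.33 (SE 0.19, 95% interval -0.09 to 0.75, limma adjusted p = 0.233). It was 0.15 without control replicate 3, 0.05 without both replicates numbered 3 and 0.02 (SE 0.10, adjusted p = 0.933) after correcting for GC and length. Of 11 tested partners of MGA in its repressor complex none passed, and the median log2 fold change was 0.30. By the unadjusted p (limma) 3 of the 11 were higher (27.3%) and 0 lower, near the 24.4% and 8.05% of all tested genes. Groups did not overlap in 5 of the 11 (45.5%), against 38.4% of all tested genes, with 3 higher and 2 lower. CBX3, a heterochromatin protein gene, stood at 14.2 ± 3.80 and 20.02 ± 3.27 FPKM, and E2F6, a repressive E2F gene, at 3.79 ± 0.301 and 4.77 ± 0.281 FPKM (adjusted p = 0.122 and 0.120). The third gene called by the unadjusted p was HDAC2, described below. RNF2, a ubiquitin ligase gene of Polycomb complexes, was not called. It stood at 4.38 ± 0.495 and 5.68 ± 1.10 FPKM (limma unadjusted p = 0.0516, adjusted p = 0.156). After correcting for GC and length the median of these 11 was -0.05, with 0 higher and 1 lower by the unadjusted p, where 16.8% of all genes passed in either direction.

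**Figure D2:**
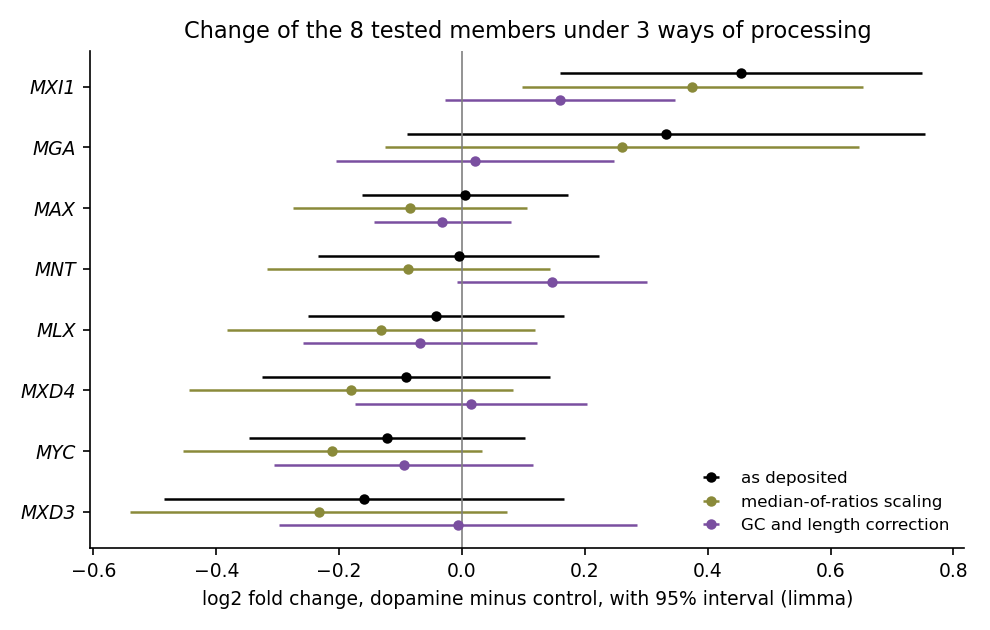
Log2 fold change (dopamine minus control) of the 8 tested members with 95% intervals from limma, for the values as deposited (black), after median-of-ratios scaling (olive) and after correcting for GC and length (purple). The interval of MXI1 lies above 0 as deposited (0.16 to 0.75) and spans 0 after the correction (-0.03 to 0.35), and those of the other 7 members span 0 in each.

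The members with the larger differences upward were those with GC-poor transcripts. MXI1 (43.7% GC in its longest transcript), MGA (42.0%) and MXD1 (42.7%) were the GC-poor members, and they had the 3 largest differences upward. The other 7 lay between 51.3 and 61.4% GC. Of the 2379 tested genes with 40 to 45% GC, 93.2% had a higher mean with dopamine, with a median log2 fold change of 0.32 and quartiles of 0.20 and 0.43. MXI1 at 0.45 stood just above that upper quartile and MGA at 0.33 near the median. Of the 1997 genes with 50 to 55% GC, 48.4% had a higher mean and the quartiles were -0.11 and 0.10, and MYC (53.9% GC) at -0.12 stood just below the lower one. Of the 1349 genes with 60 to 65% GC, 11.6% had a higher mean, with a median of -0.16 and an upper quartile of -0.09, and MNT (61.4% GC) at -0.01 stood above that quartile. Whether the trend arose in the cells or in the libraries was not tested.

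**Figure D3:**
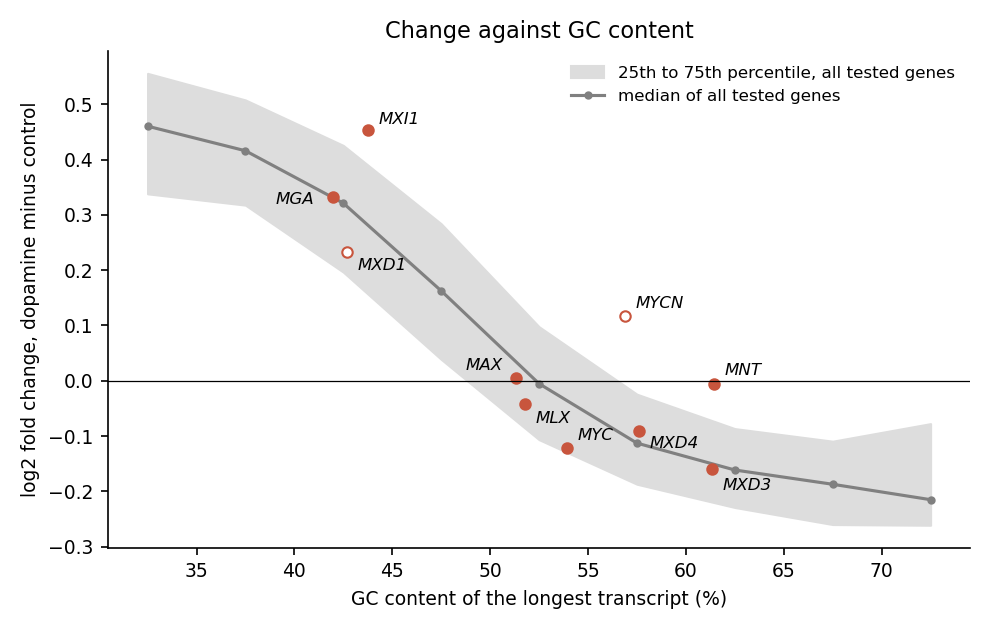
Log2 fold change (dopamine minus control) against the GC content of the longest transcript, for the 10 members (red, open circles for MXD1 and MYCN, which lay below the filter) and, in grey, the median and the 25th to 75th percentile of all tested genes in steps of 5 points of GC. The grey band falls from a median of 0.46 at 30 to 35% GC to -0.22 at 70 to 75% GC, and MXI1, MNT and MYCN lie above it.

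Promoter sequences of 9 members were taken from the RefSeq table (GRCh38.p14), and MYC was not searched. The table covers 250 bases before to 50 after each start. There were 14 promoters in all because MXI1, MAX and MGA have several. They were searched for CACGTG, the E-box that MYC and MAX bind, which reads the same on both strands. It was found in 3 of the 14, those of MLX, MNT and MXD4, and in 7.26% of all 35116 promoters of this length. The 3 matches are shown with 12 bases on either side, because they are the places where the network's own recognition sequence stands near a member's start. Capitals mark the E-box, and each is read 5′ to 3′ on the gene's strand.
MLX: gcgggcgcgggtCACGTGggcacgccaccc
MNT: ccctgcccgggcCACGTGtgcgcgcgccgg
MXD4: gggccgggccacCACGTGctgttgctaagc
The 30 bases shown lie at chr17:42567038-42567067 (MLX, plus strand), chr17:2401236-2401265 (MNT, minus strand) and chr4:2262330-2262359 (MXD4, minus strand). The E-box itself begins 50 bases before the start in MLX, 193 in MNT and 238 in MXD4. The differences of these 3 genes lay between -0.09 and -0.01 on the log2 scale. The 3 promoters of MXI1 held no such match in this window. MXI1 is transcribed from several starts, and FPKM per gene does not separate them.

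The genes through which the network acts were described from lists. Of 14 tested genes of the SIN3 and NCOR corepressors, with the MYC-binding factor gene ZBTB17, none passed. At an unadjusted p under 0.05 (limma) 6 were higher and 1 lower, against 24.4% and 8.05% of all tested genes, and the median log2 fold change was 0.22, or 0.03 after correcting for GC and length, when 1 was higher and 1 lower by the unadjusted p (16.8% of all genes in either direction). HDAC2, a histone deacetylase gene, stood at 3.13 ± 0.756 and 4.51 ± 0.751 FPKM (adjusted p = 0.120), SUDS3, a SIN3 subunit gene, at 5.35 ± 0.697 and 7.21 ± 1.26 FPKM (adjusted p = 0.117), and the histone-binding gene RBBP4 at 13.2 ± 1.78 and 16.4 ± 1.24 FPKM (adjusted p = 0.120). Groups did not overlap in 6 of the 14 corepressor genes (42.9%), against 38.4% of all tested genes, with 5 higher and 1 lower. HDAC1 and HDAC2 also belong to the MGA list, as does WDR5 from the coactivator list, so these lists are not independent.

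Of 13 tested coactivators none passed, and the median was -0.11, or -0.03 after the correction. By the unadjusted p (limma) 2 were higher and 2 lower, together 30.8%, near the 32.5% of all tested genes. After the correction 0 were called (16.8% of all genes). Without it, the groups did not overlap in 7 of the 13 (53.8%), against 38.4% of all tested genes. Of these, 1 was higher and 6 lower, against 24.4% and 14.1%. Non-overlap after the correction was not counted. ACTL6A, an actin-related chromatin subunit gene, stood at 9.46 ± 0.803 and 12.8 ± 1.51 FPKM (adjusted p = 0.11), and CCNT1, the cyclin of the elongation kinase, at 3.10 ± 0.644 and 4.40 ± 0.986 FPKM (adjusted p = 0.129). The ATPase gene RUVBL2 stood at 89.8 ± 4.86 and 77.3 ± 5.88 FPKM (adjusted p = 0.126) and HCFC1, a host cell factor gene, at 36.2 ± 3.11 and 31.4 ± 0.803 FPKM (adjusted p = 0.135).

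Of 16 tested genes that act on the stability of MYC proteins none passed, and the median was 0.19, or -0.03 after the correction. By the unadjusted p (limma) 5 were higher and 2 lower, against 24.4% and 8.05% of all tested genes. After the correction 1 was higher and 0 lower (16.8% of all genes in either direction). Without it, the groups did not overlap in 9 of the 16 (56.25%), against 38.4% of all tested genes. Of these, 5 were higher and 4 lower, against 24.4% and 14.1%. AURKA, a mitotic kinase gene whose product stabilises MYCN, stood at 13.0 ± 0.539 and 15.99 ± 1.03 FPKM (adjusted p = 0.11), and the deubiquitinase gene USP7 at 7.26 ± 1.21 and 9.86 ± 1.73 FPKM (adjusted p = 0.117). SET, which encodes an inhibitor of the phosphatase PP2A, stood at 49.1 ± 3.99 and 60.7 ± 7.02 FPKM (adjusted p = 0.113), and the ubiquitin ligase gene STUB1 at 120 ± 4.03 and 101 ± 8.65 FPKM (adjusted p = 0.111). Of 10 tested regulators of the MYC gene and its mRNA none passed, with a median of 0.11 and of -0.06 after the correction. By the unadjusted p (limma) 3 were higher and 0 lower, against 24.4% and 8.05% of all tested genes, whereas after the correction 0 were higher and 4 lower (16.8% of all genes in either direction). CTNNB1, which encodes beta-catenin, stood at 27.9 ± 3.14 and 35.6 ± 3.002 FPKM and the nucleic acid binding gene CNBP at 58.0 ± 6.66 and 73.9 ± 7.78 FPKM (adjusted p = 0.11 for both). CTCF, a chromatin insulator gene, stood at 10.2 ± 0.906 and 12.2 ± 1.36 FPKM and the RNA-binding gene HNRNPK at 91.3 ± 9.44 and 100.5 ± 11.3 FPKM (adjusted p = 0.145 and 0.356), and HNRNPK was at -0.19 on the log2 scale after the correction.

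Of 54 tested genes known to be activated by MYC, mostly of ribosome synthesis, nucleotide supply and metabolism, none passed. At an unadjusted p under 0.05 (limma) 16 were higher and 7 lower, against 24.4% and 8.05% of all tested genes. The groups did not overlap in 20 of the 54 (37.0%), near the 38.4% of all tested genes. Of these, 9 were higher and 11 lower, against 24.4% and 14.1%. The list's median was -0.03 on the log2 scale. POLR1B, a subunit gene of RNA polymerase I, stood at 8.41 ± 0.378 and 11.1 ± 0.984 FPKM, NIP7, a ribosome assembly gene, at 14.1 ± 0.881 and 17.4 ± 0.848 FPKM, and LDHA, the lactate dehydrogenase gene, at 92.5 ± 7.57 and 114.9 ± 9.94 FPKM. FASN, the fatty acid synthase gene, stood at 77.4 ± 5.88 and 63.8 ± 1.96 FPKM (adjusted p = 0.11 for each of the 4). The polyamine enzyme gene ODC1, a standard MYC target named here after its values were seen, stood at 146 and 145 FPKM. After the correction 2 were higher and 5 lower of 53 by the unadjusted p (limma), against 16.8% of all genes in either direction, and the median was 0.0013.

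Of 6 tested genes known to be repressed by MYC none passed, and the median was -0.07, or -0.15 after the correction. By the unadjusted p (limma) 0 were higher and 1 lower, against 24.4% and 8.05% of all tested genes, and after the correction 0 were higher and 3 lower (16.8% of all genes in either direction). CDKN1A, which encodes the cell cycle inhibitor p21, stood at 222, 233 and 239 FPKM in control and at 197, 201 and 179 FPKM in dopamine libraries (adjusted p = 0.11). Its groups did not overlap. CLU, the clusterin gene, stood at 51.1 ± 3.56 and 46.4 ± 2.57 FPKM, NDRG2 at 1.16 ± 0.0891 and 0.934 ± 0.0877 FPKM, and the DNA damage gene GADD45A at 21.1 ± 0.338 and 22.7 ± 3.74 FPKM (adjusted p = 0.246, 0.283 and 0.567). The sign of GADD45A turned without dopamine replicate 3 (-0.04).

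**Figure D4:**
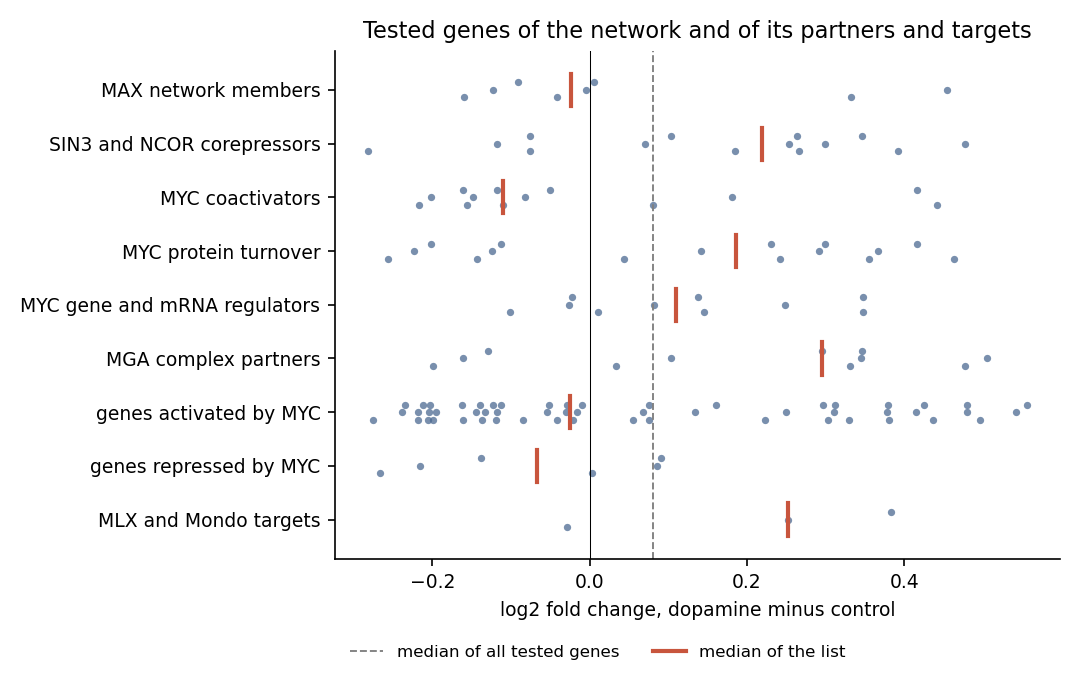
Log2 fold change (dopamine minus control) of each tested gene (blue points) in the network and in 8 lists of its partners and targets, with the list's median (red) and the median of all tested genes (dashed, 0.08). None of these genes passed the adjusted threshold; the medians run from -0.11 for the coactivators to 0.30 for the MGA partners.

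The 3 protein-coding genes whose centred log2 profile over the 6 libraries lay nearest to that of MYC were NFASC, GTSF1 and MYOZ2. Their root mean square differences from MYC were 0.0322, 0.0342 and 0.0355 log2 units. They were much lower than MYC, at control means of 1.58, 4.41 and 1.16 FPKM and dopamine means of 1.42, 4.05 and 1.06 FPKM. The profiles were compared without correction for GC content. After correcting for GC and length their log2 fold changes were -0.075, -0.385 and -0.495, against -0.095 for MYC. Whether these genes share regulation with MYC was not tested.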

How the data were processed

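The authors deposited 1 table of FPKM values per gene and sample with hg19 coordinates, from ribosome-depleted, stranded total RNA libraries per the labels' protocols. Per the submitters' processing notes, the tools were DESeq2 1.40.2, HTSeq 0.11.2, STAR 2.7.1a and FastQC 0.11.9 and the build hg19, with no role given. The sources used here do not give annotation, strand setting or FPKM totals. Titles gave each sample's group and number.

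Totals were recovered from the steps of 1 fragment in low values of 2797 pseudogenes spanning 150 to 1500 bases, with 92.2 to 94.1% of the tested values whole within 0.03, after a check on simulated depths. Member fragments were recovered where a single model length, up to its multiples, gave whole numbers within 0.05 in all 6 libraries, which was so for MYC, MYCN, MXD1, MXD3, MXI1 and MGA. Counting errors cover counting only.

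Values were tested as log2(FPKM + 0.5) with limma 3.58.1 in R 4.3.3 (intensity trend, two-sided, Benjamini-Hochberg over 11791 genes with a mean of at least 1 FPKM, threshold 0.05). Fold changes of low genes are understated on this scale. The test was checked on data simulated with independent noise and no GC trend, with changes placed in more highly expressed genes. It recovered 64.2% of 1.5-fold, 95.5% of 2-fold and 100% of 4-fold changes, with 11 false calls. Changes of less than 1.5-fold were not simulated and may be missed. The GC and length correction subtracted from each library a loess curve (span 0.5) in the GC content and log2 length of a gene's longest transcript in GENCODE release 29, for the 11579 genes (98.2%) matched by identifier. Since the GC trend differed between the groups, it can remove part of a real difference. The longest transcript was shorter than the recovered model length for MXD3 (2279 against 5154 bases), MXI1 (3470 against 4607), MYC (2366 against 2995) and MXD1 (5587 against 6321). It was equal for MYCN (2602) and close for MGA (14439 against 14513). The GC content and length used may therefore not describe what was counted. Other alternatives were pseudocounts of 0.1 and 1, filters at 0.3 and 5 FPKM and none, 3 scalings, sample quality weights, a robust prior, no trend, a replicate block and omission of libraries. Leaving out both replicates numbered 3 was chosen after seeing the data.

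Named genes were all members, up to 4 genes with the smallest p of each list, and the 3 nearest profiles to MYC. ODC1, MYCL, MLXIPL, SLC7A5 and overlapping genes lie outside that rule. The members and lists were chosen with earlier results of these data known. Some listed genes were not analysed here, and a gene that the rule names is not reported here.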

Additional observations from a re-analysis of the deposited data

How the results depend on the processing

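No member passed the threshold in 19 of 20 alternatives, and 1, MXI1, did with sample quality weights; leaving out each library gave 0 to 0. Over all tested genes 12 passed, 3 to 2177 when each library was left out (2177 without control replicate 1, 3 without control replicate 2), 7 without both replicates numbered 3, 6 with no filter, 27 after quantile normalization, 5 with no intensity trend, 2706 with sample quality weights and 26 after the GC and length correction. With the replicate block 3 passed, and no member did. Samples with the same number did not deviate together (correlations of -0.20, 0.28 and -0.37 for replicates 1, 2 and 3), so the numbers were not taken as pairs. The causes were not tested.

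Signs turned for MAX after median-of-ratios scaling (-0.084), quantile normalization (-0.0020) and the GC and length correction (-0.032), and for MNT after TPM scaling (0.00044), with sample quality weights (0.083), after that correction (0.15) and without both replicates numbered 3 (0.060). The correction also turned MXD4 (0.014), RBBP4 (-0.036), HNRNPK (-0.19) and RNF2 (-0.088). MLX turned without both replicates numbered 3 (0.045), and GADD45A did so there (-0.045) and with sample quality weights (-0.031). Leaving out single libraries gave -0.022 to 0.039 for MAX, -0.15 to 0.021 for MXD4, -0.051 to 0.031 for MNT, -0.10 to 0.039 for MLX, -0.038 to 0.16 for GADD45A and -0.057 to 0.022 for HK2. MYC, MXD3, MXI1 and MGA kept their sign in every alternative in which they were tested. Depth limits MYCN, at 2 to 16 fragments.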

Other observations

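SLC7A5, which encodes a subunit of the large neutral amino acid transporter and is on the list of genes activated by MYC, was named after its values were seen. Control cells held it at 31.9 FPKM and dopamine cells at 39.5 FPKM, with all 3 dopamine values above the control values (log2 fold change 0.30, limma adjusted p = 0.111). Its longest transcript has 61.1% GC, and 11.6% of the tested genes with 60 to 65% GC had a higher mean with dopamine. Its log2 fold change was 0.45 (limma adjusted p = 0.0596) once corrected for GC content and length. The correction raised genes of this GC range in general, and their median moved from -0.16 to -0.01.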
